A study of Mus musculus with 4 samples.

Results

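The mouse mitochondrial genome is a small circular chromosome whose 37 genes were taken here as all rows of the deposited count table placed on MT, out of 49492 gene rows. By GENCODE annotation of genome build mm10, 13 of the 37 are protein-coding, 2 are rRNA and 22 are tRNA genes. The counts come from RNA sequencing of whole testis in 4 libraries, 2 of a Spry1 knockdown (titled shSpry1) and 2 of a control hairpin (titled shControl, genotype WT). Every library, the controls included, came from male C57BL/6J mice treated with LPS (lipopolysaccharide, a bacterial cell wall component). The age of the mice, how the hairpins were delivered and which cells they reached are not given in the labels. The labels do not say that the replicates are separate animals, so a p-value speaks of the spread among these libraries alone, and that spread may be technical. The table heads its count columns LPS and NC, each with a number. The control hairpin was taken to be NC and the Spry1 knockdown, by exclusion, LPS, although LPS is in all 4 titles. Should the headings mean treated and untreated mice, a different contrast was measured, so both groups go by their column headings here. Spry1, the targeted gene, had 26 and 17 counts in the LPS columns, against 45 and 41 in the NC columns (log2 fold change -0.82; Benjamini-Hochberg adjusted p = 0.0212, edgeR quasi-likelihood test).

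Mitochondrial DNA is transcribed from both strands as long precursor RNAs. Most of the protein-coding and rRNA genes are separated by tRNAs, and cutting out the tRNAs releases the mRNAs and rRNAs. The mRNAs encode core subunits of respiratory complexes I, III and IV and of the ATP synthase (complex V), while nuclear genes supply the remaining subunits, the RNA polymerase and the processing enzymes. In the testis, mitochondria change shape during spermatogenesis and are wrapped into a sheath around the sperm midpiece.

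A stretch of the mitochondrial genome has a near-identical copy in nuclear DNA, and this decides what the deposited mitochondrial rows count. On chromosome 1, 7 gene models on the minus strand between positions 24611535 and 24616197 follow each other in the order of the mitochondrial genes, from part of mt-Co1 to part of mt-Nd4. They were found by a sequence search against GENCODE transcripts, partly after the counts had been seen. The first 60 bases of mt-Co2, mt-Atp6 and mt-Co3 are shown because no base differs between the mitochondrial gene and its chromosome 1 copy over the whole aligned length, which is 681, 678 and 783 bases. They are read on the plus strand of MT in mm10, with the first codon in capitals.

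mt-Co2 (chrM:7013-7072, and Gm28661 at chr1:24615506-24615565, minus strand): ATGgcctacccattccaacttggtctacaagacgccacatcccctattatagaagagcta
mt-Atp6 (chrM:7927-7986, and Gm10925 at chr1:24614592-24614651, minus strand): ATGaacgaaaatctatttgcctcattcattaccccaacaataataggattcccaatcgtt
mt-Co3 (chrM:8607-8666, and Gm28437 at chr1:24613912-24613971, minus strand): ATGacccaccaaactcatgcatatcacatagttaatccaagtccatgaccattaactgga

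Over its aligned bases, mt-Co1 differs from its copy Gm29216 by 1 base in 483, and mt-Nd3 differs from Gm28438 by 1 base in 345. The stretches around these bases are shown with the differing base in capitals. Positions are counted from 1 at the first base of the mitochondrial gene, and the mitochondrial base is given first (A1066T for mt-Co1, T3C for mt-Nd3).

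mt-Co1 (chrM:6390-6423, plus strand): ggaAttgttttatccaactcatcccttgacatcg
Gm29216 (chr1:24616155-24616188, minus strand): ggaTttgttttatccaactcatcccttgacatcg
mt-Nd3 (chrM:9459-9491, plus strand): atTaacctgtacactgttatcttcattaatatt
Gm28438 (chr1:24613087-24613119, minus strand): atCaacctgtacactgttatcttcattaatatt

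The counts did not divide between gene and copy in 1 way. Gm28661, the copy of mt-Co2, held 16917 and 13901 counts in the LPS columns, against 17923 and 18093 in the NC columns, while the mt-Co2 row held 90 and 78 counts in the LPS columns, against 98 and 112 in the NC columns. Gm10925, the copy of mt-Atp6, held 20477 and 18242 counts in the LPS columns, against 23194 and 27115 in the NC columns. The mt-Atp6 row held 98 and 77 counts in the LPS columns, against 90 and 109 in the NC columns. In both pairs over 99% of the counts lay on the nuclear model, as they did for Gm28437 and mt-Co3. The reverse held for mt-Nd4l, which had 5592 and 5260 counts on its mitochondrial row in the LPS columns and 5271 and 5943 in the NC columns, against 41 and 34 on Gm10222 in the LPS columns and 36 and 38 in the NC columns. The copies of mt-Nd4l (294 bases) and mt-Nd4 (876 bases) have no differing base either, so identity alone does not separate these pairs from the others. How reads that fit several places were counted is not given in the sources used here. Reads that lie wholly in identical stretches cannot be told apart, and for mt-Co1 and mt-Nd3 only reads across the 1 differing base can be. The copies cover 31.3% of mt-Co1 and 63.6% of mt-Nd4, and reads from the rest of these 2 genes have no match in the chromosome 1 block. Each mitochondrial row with a copy is uncertain to that extent. The 7 rows are therefore also given as sums with their copies.

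The copies held 35.7% and 34.9% of the summed protein-coding counts in the LPS columns, against 35.3% and 36.1% in the NC columns. The split was thus of like size in all 4 libraries. mt-Atp8, a short ATP synthase subunit gene that shares 43 bases with mt-Atp6, has no gene model of its own in the block, where 233 bases separate Gm10925 from Gm28661. It held 21 and 16 counts in the LPS columns, against 19 and 20 in the NC columns. Whether the bases in that gap copy mt-Atp8 was not checked. Reads placed there would lie on neither of these models and could not be summed with the mt-Atp8 row, so its level is uncertain too. A further 9 models elsewhere in the genome match a mitochondrial gene at 90% identity or more, and none of them exceeded 1723 counts in a library.

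**Figure D1:**
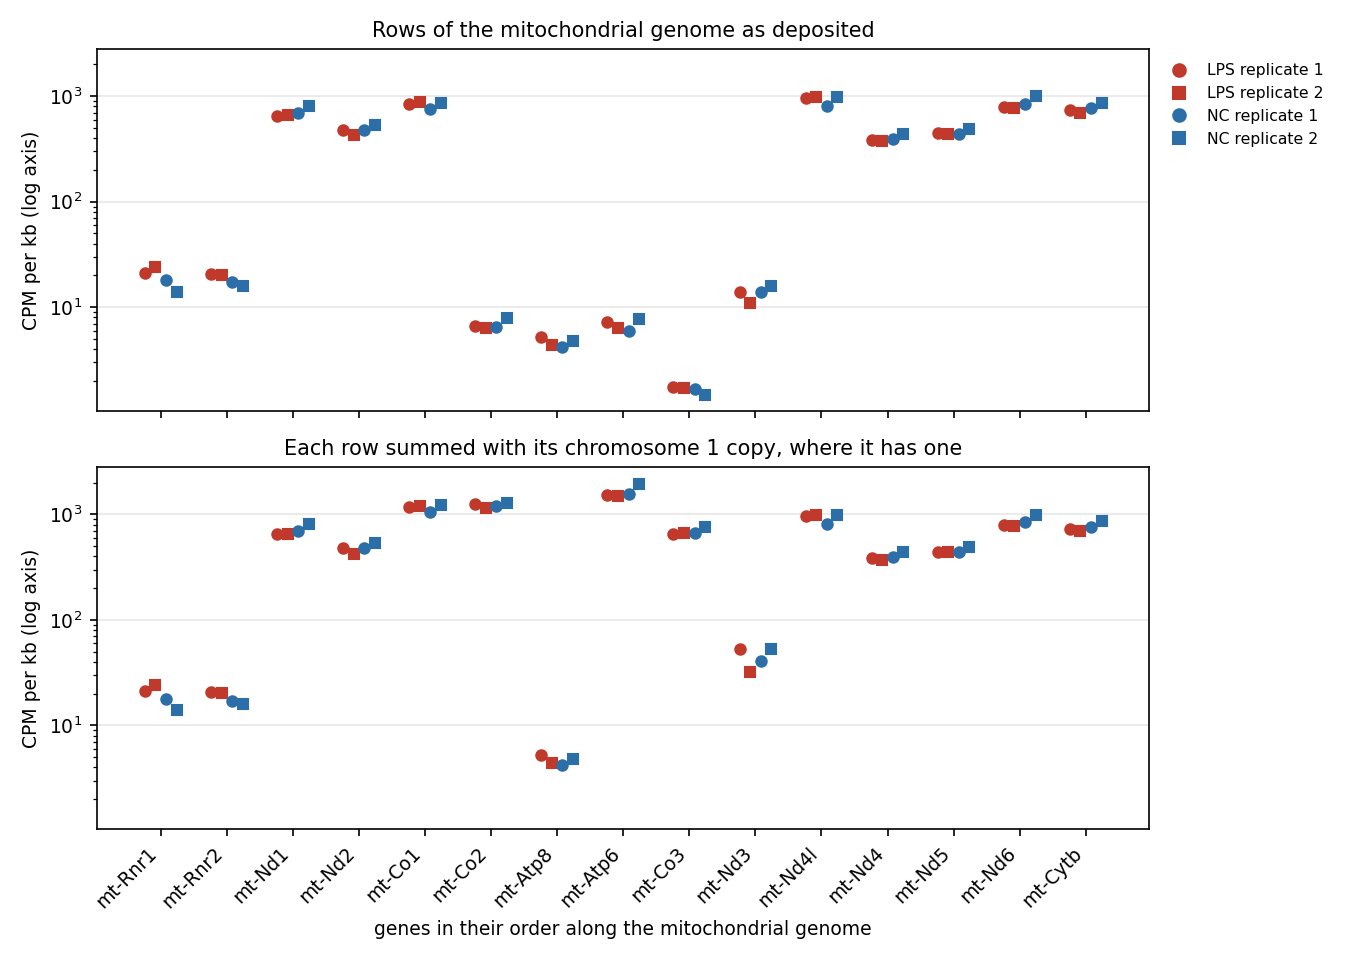
CPM (counts scaled to the library size) per kilobase of gene, on a log axis, for the 2 rRNA and 13 protein-coding genes in each of the 4 libraries, as deposited (top) and summed with the chromosome 1 copies (bottom). Of the genes at the bottom of the upper panel, mt-Co2, mt-Atp6 and mt-Co3 lie among the most abundant or middle genes in the lower panel. mt-Atp8 stays low, but it has no copy row to be summed with.

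Library totals were 19187627 and 17612342 counts in the LPS columns, against 22451132 and 21081589 in the NC columns. Of 20855 genes tested with edgeR's quasi-likelihood test and Benjamini-Hochberg adjustment over all of them (called the edgeR adjusted p here, with 0.05 as the threshold), 15.2% passed as higher in the LPS columns and 16.3% as lower. That is 3169 higher and 3394 lower genes with TMM scaling, against 4210 higher and 2579 lower when libraries were scaled by their totals alone, which moves the median log2 fold change of all genes to 0.07 from 0.0023. NC replicate 2 held the highest CPM of the 4 libraries for 9 of the 13 protein-coding rows. On the log2 scale its protein-coding share exceeded that of NC replicate 1 by 0.17, so results on the mRNAs are also given without it.

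As a class, the mitochondrial mRNAs took about the same part of the libraries in both groups. The 13 protein-coding rows made up 0.546% and 0.534% of the library total in the LPS columns, against 0.515% and 0.581% in the NC columns. Both LPS columns lay between the NC columns, and the means were 0.540% ± 0.00827 in the LPS columns and 0.548% ± 0.0467 in the NC columns (SD, n = 2 each). With the copies added, the share was 0.849% and 0.820% in the LPS columns, against 0.796% and 0.910% in the NC columns, and the groups again overlapped. With 2 samples a group, an exact two-sided permutation test cannot give a p below 0.333, so no p is given for these sums.

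The rRNA class was a small share and the higher one in the LPS columns. The 2 rRNA rows made up 0.00547% and 0.00560% of the library total in the LPS columns, against 0.00436% and 0.00379% in the NC columns, a log2 ratio of the means of 0.44. Both LPS columns lay above both NC columns. The 22 tRNA rows made up 0.00507% and 0.00583% in the LPS columns, against 0.00486% and 0.00527% in the NC columns, and the groups overlapped.

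Set against all mitochondrial counts, protein-coding rows held 98.1% and 97.9% in the LPS columns, against 98.2% and 98.5% in the NC columns. The rRNA rows held 0.983% and 1.03% in the LPS columns, against 0.832% and 0.641% in the NC columns. The tRNA rows held 0.911% and 1.07% in the LPS columns, against 0.927% and 0.893% in the NC columns. Of the 3 classes, only tRNA overlapped between the groups in this measure. Among single genes, 32.1% of all tested lay higher and 32% lower in CPM without overlap. Per kilobase the rRNAs lay far under most mRNAs, with mt-Rnr1 at 21.3 and 23.9 CPM per kb in the LPS columns and 17.96 and 14.1 in the NC columns, where mt-Nd1 had 653 and 658 in the LPS columns and 699 and 808 in the NC columns. Per the labels' protocols the libraries were made with a stranded mRNA kit. Mature mitochondrial tRNAs carry no poly(A) tail and the rRNAs only a short one, so these shares need not be those of the RNA in the cell.

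**Figure D2:**
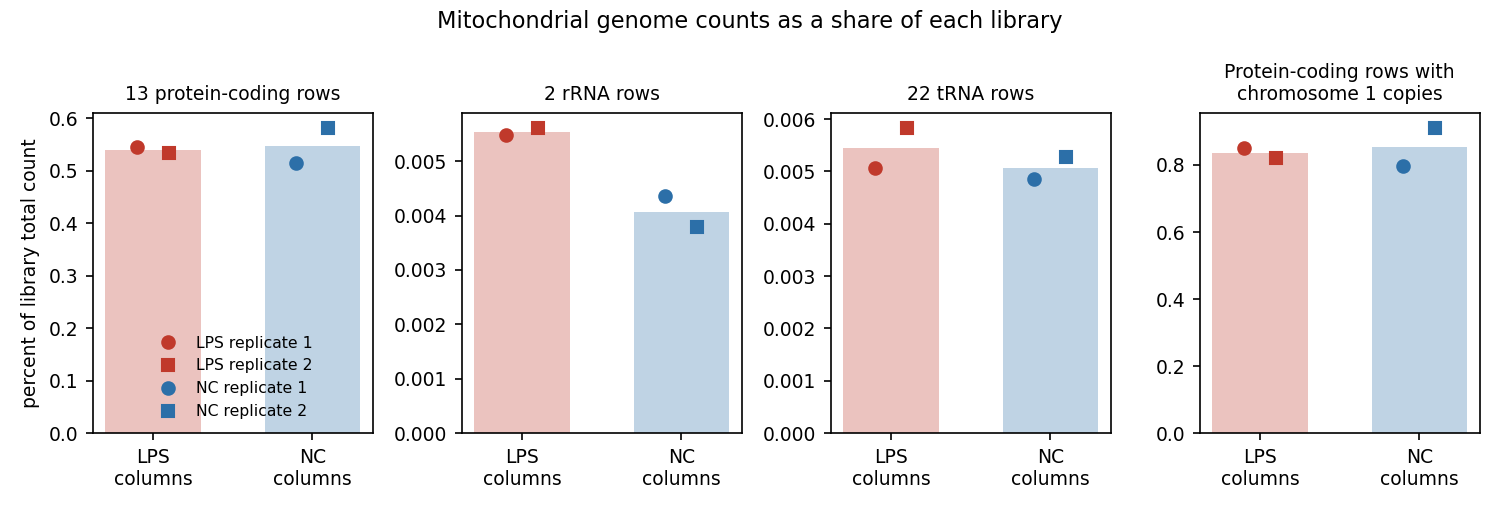
Percent of the library total count held by the protein-coding, rRNA and tRNA rows of the mitochondrial genome and by the protein-coding rows with their chromosome 1 copies; bars are group means and points are the 2 libraries of each group. Only in the rRNA panel do both LPS columns lie above both NC columns.

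Among the 13 protein-coding genes, 5 were lower, 0 were higher and 8 did not pass the test. The background of lower calls is 16.3% of all genes, and the group of 13 is small. The median log2 fold change of the 13 was -0.14, beside 0.0023 for all genes tested. Of the 13, 6 had both LPS columns under both NC columns and 1 had them above, against 32% and 32.1% of all genes. At an unadjusted p under 0.05, 1 gene (mt-Nd4l) was higher, and DESeq2 and limma-voom also called 0 higher.

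Complex I, the NADH dehydrogenase, takes 7 subunits from the mitochondrial genome, and 4 of these genes were lower in the LPS columns. mt-Nd1 had 625 and 629 CPM in the LPS columns, against 669 and 773 CPM in the NC columns, a log2 fold change of -0.20 ± 0.06 (SE; edgeR adjusted p = 0.00475). mt-Nd2 had 495 and 441 CPM in the LPS columns, against 499 and 555 CPM in the NC columns, a log2 fold change of -0.17 ± 0.06 (edgeR adjusted p = 0.0191). In both genes the NC columns lay above the LPS columns, and for mt-Nd2 the nearest pair of libraries almost touched. mt-Nd4 had 527 and 513 CPM in the LPS columns, against 545 and 599 CPM in the NC columns, a log2 fold change of -0.14 ± 0.05 (edgeR adjusted p = 0.0426). mt-Nd6, the single mRNA gene on the minus strand, had 411 and 404 CPM in the LPS columns, against 438 and 516 CPM in the NC columns, a log2 fold change of -0.23 ± 0.06 (edgeR adjusted p = 0.00226). These groups did not overlap, and NC replicate 2 was the highest library for each of the 4 genes.

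The other complex I genes did not pass the test. mt-Nd5 had 812 and 802 CPM in the LPS columns, against 801 and 892 CPM in the NC columns (log2 fold change -0.07, edgeR adjusted p = 0.340). mt-Nd4l, whose last 7 bases overlap mt-Nd4, had 283 and 294 CPM in the LPS columns, against 239 and 289 CPM in the NC columns (log2 fold change 0.13, edgeR adjusted p = 0.109). Both overlapped between the groups. mt-Nd4l was called higher in 5 of 10 alternatives: scaling by library totals alone, no filter on low counts, the replicate number as a block (adjusted p = 0.0362), and without LPS replicate 1 or NC replicate 2. With a library left out its log2 fold change ranged from 0.0034 (without NC replicate 1) to 0.27 (without NC replicate 2). mt-Nd3 summed with its copy had 18.3 and 11.3 CPM in the LPS columns, against 14.2 and 18.3 CPM in the NC columns, and its groups overlapped, with the LPS libraries further apart than the NC libraries.

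mt-Cytb, the single complex III gene of the mitochondrial genome (cytochrome b), had 841 and 798 CPM in the LPS columns, against 877 and 980 CPM in the NC columns. Its log2 fold change was -0.18 ± 0.05 (edgeR adjusted p = 0.00895), and both NC columns lay above both LPS columns.

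The 3 complex IV genes, catalytic subunits of cytochrome c oxidase, did not pass the test with or without their copies. mt-Co1 had 1293 and 1365 CPM in the LPS columns, against 1165 and 1338 CPM in the NC columns (log2 fold change 0.09, edgeR adjusted p = 0.240). Summed with its copy, mt-Co2 had 861 and 782 CPM in the LPS columns, against 818 and 886 CPM in the NC columns (log2 fold change -0.05, edgeR adjusted p = 0.503). Both overlapped between the groups. mt-Co3 with its copy had 511 and 521 CPM in the LPS columns, against 524 and 594 CPM in the NC columns (log2 fold change -0.12, edgeR adjusted p = 0.103), and its groups did not overlap. The mt-Co3 row alone had a log2 fold change of 0.12 on 24 to 29 counts a library.

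For complex V, the call depended on the copy. The mt-Atp6 row alone had a log2 fold change of -0.01 ± 0.17 (edgeR adjusted p = 0.977). Summed with Gm10925, mt-Atp6 had 1042 and 1024 CPM in the LPS columns, against 1056 and 1325 CPM in the NC columns, a log2 fold change of -0.20 ± 0.06 (edgeR adjusted p = 0.0106). NC replicate 2 stood apart here: without it the log2 fold change was -0.03 and no longer passed the test, and it also missed the threshold when scaled by library totals alone and with DESeq2. mt-Atp8 did not pass the test on its few counts (log2 fold change 0.10, edgeR adjusted p = 0.860). Summed with copies, 6 of the 13 genes were lower and 0 higher (16.3% and 15.2% of 20848 genes), and at an unadjusted p under 0.05 mt-Nd4l was the 1 higher gene.

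The mRNA calls rested on NC replicate 2. Without it, 0 of the 13 genes were lower by edgeR's test, also at an unadjusted p under 0.05, and 2 (mt-Co1 and mt-Nd4l) were higher. Without LPS replicate 2, mt-Nd1 and mt-Nd6 alone were lower. Scaled by library totals alone, mt-Nd1 and mt-Nd6 were lower and mt-Co1 and mt-Nd4l higher. DESeq2 called mt-Nd1 and mt-Cytb lower and 0 higher. The 5 genes called lower kept a negative log2 fold change in all 10 alternatives computed for each, the highest value being -0.07 for mt-Nd4.

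**Figure D3:**
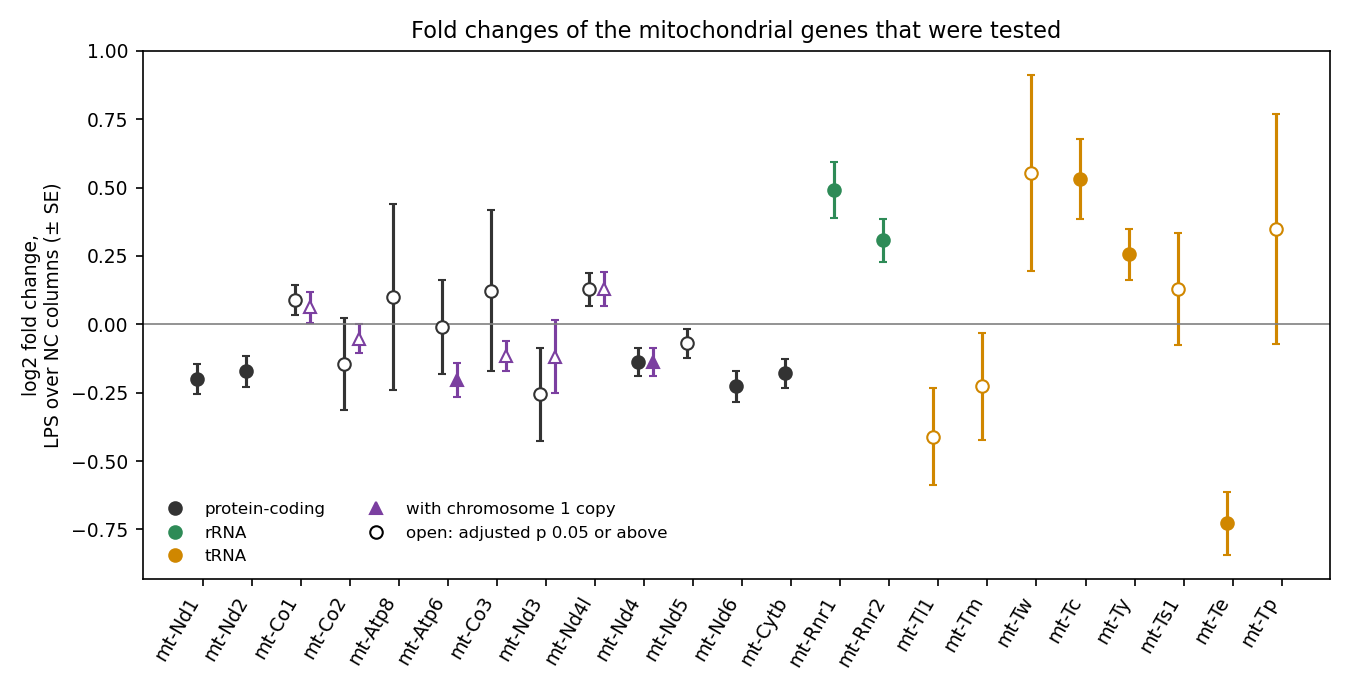
Log2 fold change of the LPS over the NC columns with its standard error for the 13 protein-coding, 2 rRNA and 8 tRNA genes that were tested; filled symbols have an edgeR adjusted p under 0.05, and triangles are sums with a chromosome 1 copy. The protein-coding genes lie between -0.26 and 0.13, the rRNAs at 0.31 and 0.49, and mt-Te is lowest at -0.73.

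Relative to the mitochondrial mRNA pool, the make-up of the mRNAs differed by small amounts. mt-Co1 made up 24.4% and 25.9% of the protein-coding mitochondrial counts in the LPS columns, against 22.2% and 22.4% in the NC columns. mt-Nd4l made up 5.34% and 5.59% in the LPS columns, against 4.56% and 4.85% in the NC columns. The shares of mt-Nd1 were 11.8% and 11.96% in the LPS columns, against 12.7% and 12.97% in the NC columns, and those of mt-Nd6 were 7.75% and 7.67% in the LPS columns, against 8.35% and 8.65% in the NC columns. None of these 4 overlapped between the groups. The shares of mt-Nd4, mt-Cytb, mt-Nd3, mt-Co3 and mt-Atp8 did not overlap either, and those of mt-Nd2, mt-Nd5, mt-Co2 and mt-Atp6 did. In CPM, 32.1% of all genes tested lay higher and 32% lower in the LPS columns without overlap. Such a background was not computed for shares. These are shares of the 13 rows without copies, where mt-Co2, mt-Atp6 and mt-Co3 have few counts. With copies in the total, mt-Nd1 held 7.58% and 7.79% in the LPS columns, against 8.25% and 8.29% in the NC columns. Again none of the 4 genes overlapped. With copies added, complex IV genes together held 38.7% and 39.1% in the LPS columns, against 36.6% and 36.2% in the NC columns, and complex I genes held 38.5% and 38.3% in the LPS columns, against 39.6% and 39.1% in the NC columns. The complex III gene held 10.2% and 9.88% in the LPS columns, against 10.8% and 10.51% in the NC columns, and complex V genes held 12.6% and 12.7% in the LPS columns, against 13.04% and 14.2% in the NC columns. None of the 4 complexes overlapped between the groups, complex IV being higher and the others lower in the LPS columns. For such sums no background was computed either. The genes of a complex did not move as one. mt-Co1 with its copy held 22.1% and 22.96% in the LPS columns, against 20.04% and 20.3% in the NC columns, while mt-Co2 and mt-Co3 with their copies overlapped. In complex I, mt-Nd1, mt-Nd4 and mt-Nd6 were lower and mt-Nd4l higher, and mt-Nd2, mt-Nd3 and mt-Nd5 overlapped. These shares sum to a whole, so 1 gene's higher share lowers the others.

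The sum of the 13 protein-coding rows, without copies, was put in place of the library size in the edgeR test. Of the 13 mRNAs, 0 passed in either direction, also at an unadjusted p under 0.05. The backgrounds of that test were 11.7% higher and 6.56% lower of 20855 genes. A gene that makes up much of the pool is pulled towards no change in it. The test also shares its spread over all genes. Its standard errors were larger than with TMM scaling, 0.116 against 0.055 for mt-Nd1 and 0.116 against 0.052 for mt-Nd5. Its lack of mRNA calls therefore does not show that the make-up of the pool was alike. Without NC replicate 2, mt-Co1 and mt-Nd4l passed as higher in that test. Among the other members, mt-Rnr1, mt-Rnr2 and mt-Tc were higher and mt-Te was lower relative to the mRNA pool. With an LPS library left out, some or all of these calls were lost, and fewer genes of the whole table passed too. mt-Rnr1 had log2 fold changes of 0.66 without LPS replicate 1 and 0.47 without LPS replicate 2, against 0.57 with all libraries. In the same order they were 0.378, 0.391 and 0.385 for mt-Rnr2, and 0.89, 0.30 and 0.62 for mt-Tc. mt-Te had log2 fold changes of -0.66 without LPS replicate 2 and -0.63 without LPS replicate 1, against -0.65 with all libraries. mt-Rnr2 also missed the threshold without NC replicate 2 and with the replicate number as a block.

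The mitochondrial rRNAs, which build the mitochondrial ribosome, were both higher in the LPS columns (2 of 2, beside 15.2% of all genes). mt-Rnr1 encodes the small subunit 12S rRNA and lies at chrM:70-1024 on the plus strand. It had 401 and 409 counts in the LPS columns, against 378 and 276 in the NC columns, which is 20.3 and 22.9 CPM in the LPS columns and 17.2 and 13.4 CPM in the NC columns. Its log2 fold change was 0.49 ± 0.10 (edgeR adjusted p = 2.97e-04). Both LPS columns lay above both NC columns, and the NC columns stood further apart than the LPS columns.

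mt-Rnr2 encodes the large subunit 16S rRNA and lies at chrM:1094-2675, with only mt-Tv between it and mt-Rnr1. It had 32.9 and 32.3 CPM in the LPS columns, against 27.3 and 25.4 CPM in the NC columns, a log2 fold change of 0.31 ± 0.08 (edgeR adjusted p = 0.00263). Within each group its libraries lay close together. mt-Rnr1 passed the test in all 10 alternatives, with log2 fold changes from 0.33 to 0.69, and mt-Rnr2 in 9 of them, missing it with DESeq2. mt-Rnr1 made up 38.2% and 41.4% of the rRNA counts in the LPS columns, against 38.6% and 34.6% in the NC columns, and these ranges overlapped.

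NC replicate 2 was thus the highest library for most mRNAs and the lowest for both rRNAs. On the log2 scale its rRNA share differed from that of NC replicate 1 by -0.20, and its mRNA share by 0.17. Nuclear-encoded RNAs without a poly(A) tail were looked at beside the rRNAs. Of 20 listed, 5 had enough counts for the test, of which 0 were higher and 2 lower by edgeR's test (15.2% and 16.3% of all genes). DESeq2 and limma-voom called 0 higher as well, and at an unadjusted p under 0.05 edgeR also had 0 higher. Rn7s1, an RNA of the signal recognition particle, had 3.34 and 1.29 CPM in the LPS columns, against 4.58 and 11.0 CPM in the NC columns (log2 fold change -1.71, edgeR adjusted p = 8.01e-06), and Rn7s2, of the same kind, had a log2 fold change of -1.90 (edgeR adjusted p = 0.00234). Both lay highest in NC replicate 2. Both calls were lost with DESeq2, and that of Rn7s2 also without NC replicate 2. With a library left out, the log2 fold change ranged from -2.58 (without LPS replicate 1) to -0.96 (without NC replicate 2) for Rn7s1 and from -2.43 (without NC replicate 1) to -1.10 (without NC replicate 2) for Rn7s2. The part of poly(A) selection in the rRNA result was not tested.

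Of the 22 tRNA genes, 8 passed the filter on low counts, and of these 2 were higher, 1 lower and 5 did not pass the test, counts near the background of 15.2% and 16.3% of all genes. The other 14 genes had 0 to 12 counts a library, and mt-Td, mt-Tk and mt-Tg had 0 in all 4 libraries, where 3 counts, or 0.134 to 0.170 CPM, is the limit that a count of 0 allows. That limit covers counting error alone. These 3 genes, mt-Ts1 and mt-Tr lie between mt-Co1 and mt-Nd4l, where mRNA genes other than mt-Atp8 have chromosome 1 copies. The search for copies asked for more aligned bases than these tRNA genes have, so it could not report copies of them. Whether the block copies them was thus not tested. Reads placed on such copies would be missing from these rows, so 0 counts do not show that the RNA was absent. The sequences of the 3 tRNAs that passed are shown with the anticodon in capitals. They are in DNA letters on the strand of the gene, minus for all 3.

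mt-Te (tRNA for glutamate, chrM:14071-14139): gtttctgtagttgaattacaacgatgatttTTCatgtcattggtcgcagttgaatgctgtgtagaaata
mt-Tc (tRNA for cysteine, chrM:5192-5257): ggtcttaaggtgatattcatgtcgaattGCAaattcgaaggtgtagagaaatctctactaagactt
mt-Ty (tRNA for tyrosine, chrM:5260-5326): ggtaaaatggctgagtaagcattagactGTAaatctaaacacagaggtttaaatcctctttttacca

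mt-Te had 160 and 147 counts in the LPS columns, against 302 and 274 in the NC columns. In CPM this was 8.10 and 8.22 in the LPS columns, against 13.7 and 13.3 in the NC columns, a log2 fold change of -0.73 ± 0.11 (edgeR adjusted p = 4.62e-06). The libraries of each group lay close together and far from the other group. The call held in all 10 alternatives, with log2 fold changes from -0.75 to -0.66. mt-Te abuts mt-Nd6 with 0 bases between them on the same strand, and lies 5 bases from mt-Cytb on the other. Both neighbours were also called lower, by -0.23 for mt-Nd6 and -0.18 for mt-Cytb.

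mt-Tc and mt-Ty lie side by side next to mt-Co1, in a run of 4 minus-strand tRNA genes with mt-Ta and mt-Tn. mt-Tc had 8.10 and 12.1 CPM in the LPS columns, against 6.35 and 7.54 CPM in the NC columns, a log2 fold change of 0.53 ± 0.15 (edgeR adjusted p = 0.00491). LPS replicate 2 stood above the rest, and without it the log2 fold change was 0.23 and did not pass. DESeq2 did not call it either. mt-Ty, 1 base from mt-Co1, had 19.9 and 22.3 CPM in the LPS columns, against 16.8 and 18.4 CPM in the NC columns, a log2 fold change of 0.26 ± 0.09 (edgeR adjusted p = 0.0345). Its groups did not overlap, but the call was lost without LPS replicate 2, without NC replicate 1 and with DESeq2. mt-Ta and mt-Tn were not tested: mt-Ta had 8 and 8 counts in the LPS columns, against 2 and 3 in the NC columns, and mt-Tn had 8 and 12 in the LPS columns, against 4 and 7 in the NC columns.

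Of the tRNAs that did not pass, mt-Tl1, a leucine tRNA next to mt-Rnr2, had 3.90 and 3.47 CPM in the LPS columns, against 4.36 and 5.50 CPM in the NC columns (log2 fold change -0.41, edgeR adjusted p = 0.0744). mt-Tm, for methionine, had 2.99 and 3.24 CPM in the LPS columns, against 3.27 and 4.04 CPM in the NC columns (log2 fold change -0.23, edgeR adjusted p = 0.407). Neither overlapped between the groups, and both were highest in NC replicate 2. mt-Ts1, for serine, had 2.79 and 3.35 CPM in the LPS columns, against 2.81 and 2.77 CPM in the NC columns (log2 fold change 0.13, edgeR adjusted p = 0.678), and it overlapped. The last 2 tested tRNAs had few counts. mt-Tw, for tryptophan, had 0.912 and 1.17 CPM in the LPS columns, against 0.635 and 0.779 CPM in the NC columns (log2 fold change 0.55, edgeR adjusted p = 0.256), and its LPS columns lay above its NC columns. mt-Tp, for proline, had 0.507 and 0.950 CPM in the LPS columns, against 0.635 and 0.487 CPM in the NC columns (log2 fold change 0.35, edgeR adjusted p = 0.575), and it overlapped.

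The tRNA counts were uneven in strand. The 8 tRNA genes on the minus strand held 81.7% and 83.7% of the tRNA counts in the LPS columns, against 82.4% and 79.9% in the NC columns. Within the tRNA class, mt-Te made up 16.4% and 14.3% in the LPS columns, against 27.7% and 24.7% in the NC columns, and mt-Ty made up 40.3% and 38.8% in the LPS columns, against 34.0% and 34.0% in the NC columns. The library kit keeps strand, but the strand setting of the counting is not given in the sources used here. With that setting unknown, reads of a minus-strand tRNA gene cannot be told apart from reads of a plus-strand precursor that runs across it, and the same holds for mt-Nd6 and its antisense.

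**Figure D4:**
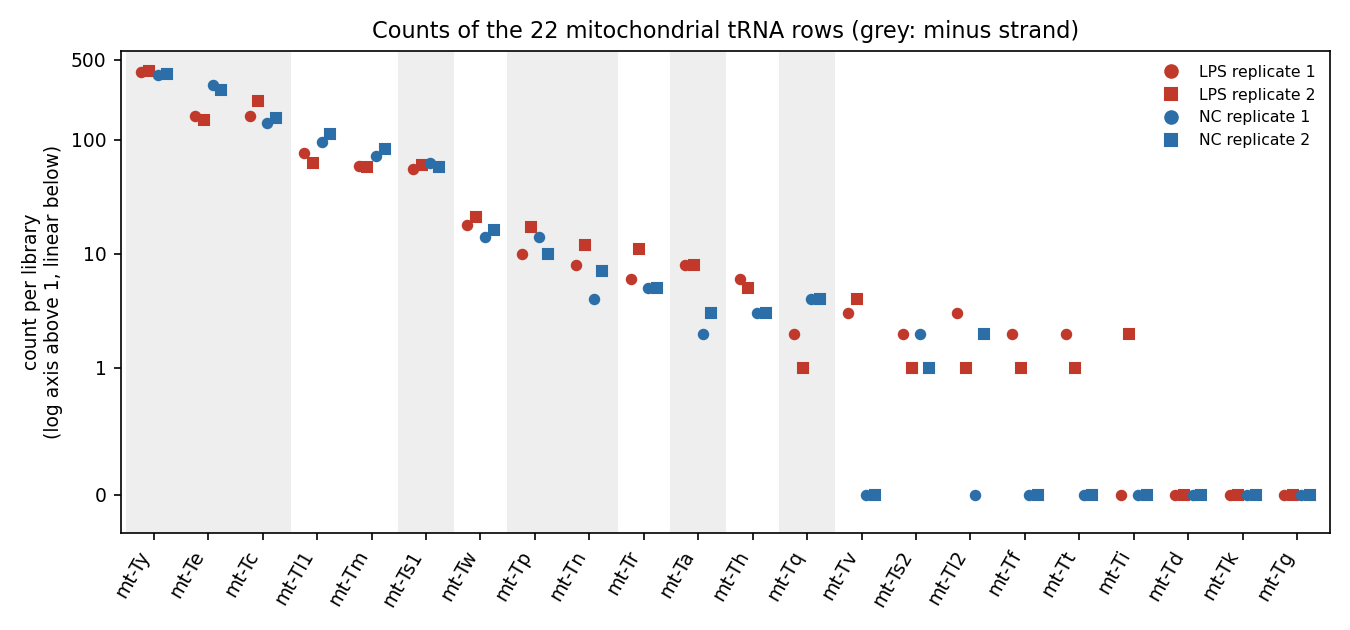
Counts of each of the 22 tRNA rows in the 4 libraries, ordered by their sum, on an axis that is logarithmic above 1; grey marks genes on the minus strand. mt-Ty, mt-Te and mt-Tc lead, all on the minus strand, and mt-Te is the gene whose NC points lie well above its LPS points.

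**Figure D5:**
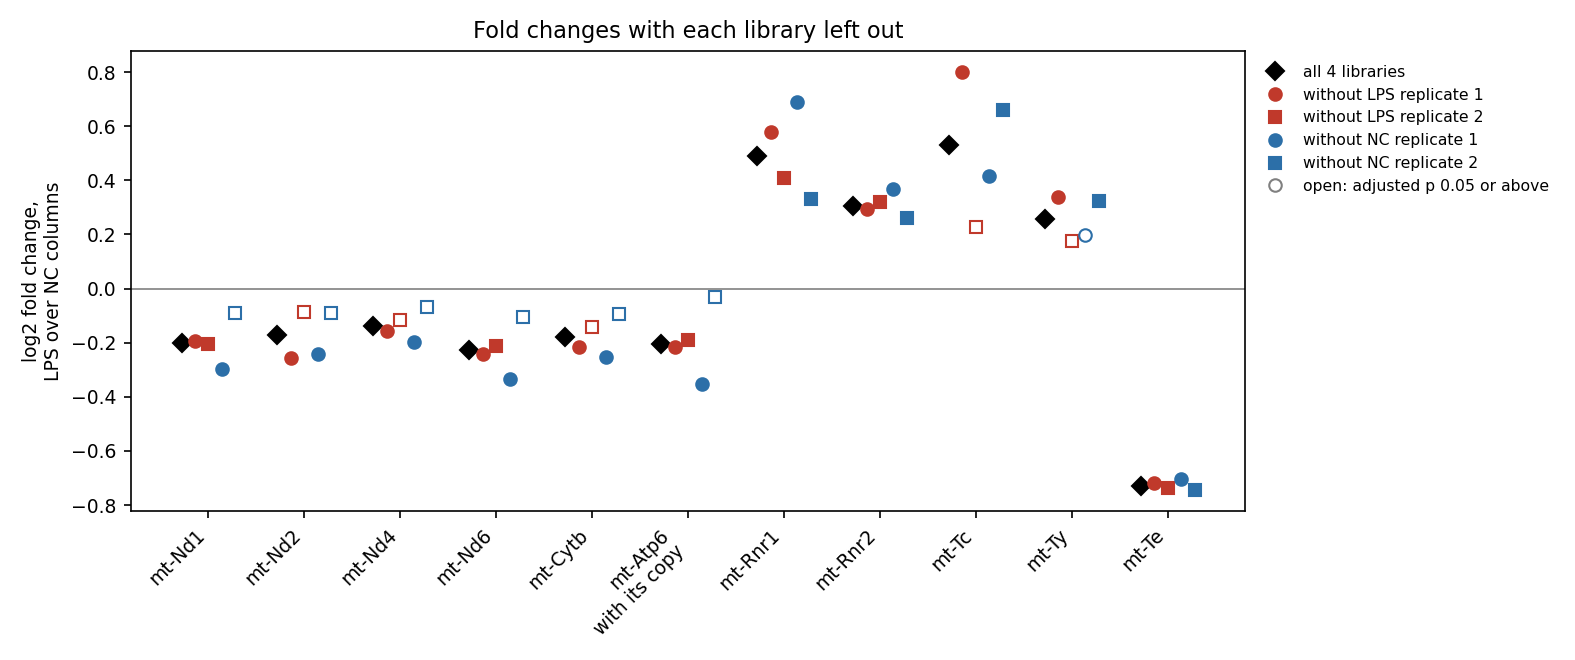
Log2 fold change of the members that passed the test, with all 4 libraries (diamonds) and with each library left out in turn; open symbols have an edgeR adjusted p of 0.05 or above. Without NC replicate 2 the mRNAs lie closer to 0 and are open, while mt-Rnr1, mt-Rnr2 and mt-Te remain filled in every fit shown.

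Nuclear genes that act on mitochondrial DNA and RNA were examined in lists. Of 17 tested genes for transcription, replication and packaging of mitochondrial DNA, 2 were higher and 2 lower, which is under the background in both directions, with a median log2 fold change of 0.16. Tfam, which packages mitochondrial DNA and starts its transcription, had 103 and 111 CPM in the LPS columns, against 156 and 166 CPM in the NC columns (log2 fold change -0.59 ± 0.06, edgeR adjusted p = 2.72e-10). Top1mt, the mitochondrial topoisomerase, had 21.6 and 26.3 CPM in the LPS columns, against 14.8 and 15.96 CPM in the NC columns (log2 fold change 0.64 ± 0.10, edgeR adjusted p = 3.27e-06). Neither overlapped between the groups, and both passed in all 9 alternatives. Twnk, the replicative helicase, had a log2 fold change of 0.35 and Mterf2, of the mitochondrial termination factor family, one of -0.73, and both calls were lost with DESeq2. Polrmt, the mitochondrial RNA polymerase, did not pass (log2 fold change 0.16, edgeR adjusted p = 0.213).

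Of 22 tested genes for mitochondrial RNA processing and stability, 3 were higher and 0 lower by edgeR's test, with a median of 0.01, and the higher share was near the background of 15.2%. DESeq2 called 0 in either direction and limma-voom 0 lower, and at an unadjusted p under 0.05 edgeR had 2 lower genes (Fastkd3 and Mtpap, named after their values were seen). The higher ones were Fastkd5, which in human cells matures precursors that tRNAs do not flank (log2 fold change 0.42), Pnpt1, a 3′ exonuclease (0.27), and Elac2, which cuts tRNA 3′ ends (0.22). Fastkd5 alone of the 3 passed with each library left out. Of 22 genes for mitochondrial tRNA charging, 3 were higher and 1 lower, near the background for higher and under that of 16.3% for lower, with a median of 0.09. These were Vars2 (log2 fold change 0.52), Tars2 (0.37) and Gatb (0.35), which serve the valine, threonine and glutamine tRNAs, and Sars2 for serine (-0.38). Tars2 passed in all 9 alternatives and Sars2 in none that left a library out. The synthetases of the 3 called tRNAs, looked up after those calls were seen, did not pass: Ears2 for glutamate had a log2 fold change of 0.29 (edgeR adjusted p = 0.110), Cars2 for cysteine -0.13 (edgeR adjusted p = 0.649) and Yars2 for tyrosine 0.27 (edgeR adjusted p = 0.238).

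Nuclear genes for mitochondrial structure, respiration and biogenesis showed few calls. Of 12 membrane, matrix and import genes, listed as proxies of mitochondrial content, 1 was higher and 2 lower, with a median of 0.03. Whether their levels follow that content was not tested. Hspd1, the matrix chaperonin, was higher (log2 fold change 0.23), and Phb, a prohibitin of the inner membrane (-0.79), and Tomm22, an import receptor (-0.20), were lower. Of 23 nuclear subunits of complexes I, III, IV and V, 2 were higher and 2 lower, with a median of 0.00011. They were Ndufs7 (log2 fold change 0.32) and Atp5a1 (0.15), which were higher, and Cox5a (-0.30) and Cox5b (-0.15), which were lower. Of 10 regulators of mitochondrial biogenesis, Gabpb2 was higher (0.34) and Pprc1 lower (-0.36). In these 3 lists the called shares were near or under the background of 15.2% higher and 16.3% lower. Phb and Gabpb2 were called in all 9 alternatives, and each of the other genes named here lost its call with DESeq2 and with at least 1 library left out.

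Of 14 genes of the sperm mitochondrial sheath and testis mitochondrial isoforms, 0 were higher and 5 lower by edgeR's test (15.2% and 16.3% of all genes), with a median of -0.13. DESeq2 and limma-voom called 0 higher as well, and at an unadjusted p under 0.05 edgeR also had 0 higher. The 5 were Tbc1d21 (log2 fold change -0.26), Armc12 (-0.24), Gykl1 (-0.20) and Gk2 (-0.17), which act in sheath formation in mouse sperm, and Spata19 (-0.14), a sperm mitochondrial protein. Without NC replicate 2, only Gykl1 of the 5 passed. Smcp, the sheath's most abundant transcript in this list, did not pass (log2 fold change 0.04, edgeR adjusted p = 0.539).

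Markers of testis cell types differed between the groups as well, and their counts of calls stand beside 15.2% higher and 16.3% lower among all genes. In whole testis, fewer cells of a type and less RNA per cell cannot be told apart. Of 8 elongating spermatid markers, 7 were lower, and their summed level was 16891 and 16592 CPM in the LPS columns, against 23772 and 22889 CPM in the NC columns. Of 6 round spermatid markers, 1 was higher and 5 lower, with sums of 1368 and 1325 CPM in the LPS columns, against 1443 and 1417 CPM in the NC columns. Spermatocyte markers had 1 higher and 1 lower of 7, with sums of 2775 and 2621 CPM in the LPS columns, against 2743 and 2900 CPM in the NC columns. Germ cell markers were thus abundant in every library.

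Of 8 Sertoli cell markers, 5 were higher, with sums of 934 and 926 CPM in the LPS columns, against 685 and 683 CPM in the NC columns. Leydig cell markers, from steroid-producing cells rich in mitochondria, had 1 higher and 4 lower of 7, with sums of 423 and 488 CPM in the LPS columns, against 790 and 831 CPM in the NC columns. That sum does not stand for each marker. Cyp17a1 had 41.1 and 49.4 CPM in the LPS columns, against 247 and 249 CPM in the NC columns. Insl3 had 196 and 204 CPM, against 199 and 222 CPM, and did not pass (edgeR adjusted p = 0.337), and Cyp11a1 was the higher one. Macrophage markers had 3 higher and 3 lower of 7 (65.3 and 75.1 CPM in the LPS columns, 47.1 and 51.4 CPM in the NC columns). Endothelial markers had 2 higher of 4 tested, and erythroid markers 1 lower of 3 tested. No marker of these lists was at 0 in all libraries. The part of these cell types in the mitochondrial results was not tested.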

How the data were processed

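RNA of whole testis was sequenced in 4 libraries, 2 a group. The authors deposited raw counts per gene; the submitters' processing notes name featureCounts, STAR 2.5.3a, Subread 1.5.1, Trimmomatic 0.36, DESeq and edgeR 3.12.1 and the build mm10, in roles not given. The sources used here do not give the annotation release, the strand setting, molecular identifiers or the handling of reads that fit several places. Gene length in bases is the deposited value of the table's length column. All 37 mitochondrial rows matched GENCODE M21 in symbol, position and strand, which gave their class. Genes and sequences came from its mm10 transcripts, and copies were found with blastn 2.17.0 (at least 90% identity over 100 bases).

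Counts were filtered with filterByExpr, scaled by TMM and tested across all genes with edgeR 4.0.16 (quasi-likelihood, Benjamini-Hochberg adjustment, threshold 0.05) in R 4.3.3. CPM uses the TMM-scaled library size, and shares use the raw library total. Alternatives were scaling by library totals alone, DESeq2 1.42.0, limma-voom 3.58.1, no filter on low counts, the replicate number as a block, leaving out each library, other denominators and, added after seeing the data, sums with the chromosome 1 copies. Every mitochondrial row and every nuclear copy could be named. Of each other list, at most the 4 called genes with the largest absolute log2 fold change were to be named. Spata19, Smcp, Polrmt, Fastkd3, Mtpap, Ears2, Cars2, Yars2 and the cell type markers Cyp17a1, Insl3 and Cyp11a1 were named outside that rule. Members and lists were chosen with earlier results of these data known. The test was checked on simulated counts with changes larger than those of the mitochondrial mRNAs, so the check does not cover calls of their size. Replicates of a group differed by more than sampling noise, the chi-square per degree of freedom being 1.94 (LPS columns) and 1.85 (NC columns) over all genes and 10.53 (LPS columns) and 3.20 (NC columns) over the 13 mitochondrial protein-coding genes.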

Additional observations from a re-analysis of the deposited data

How the results depend on the processing

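Alternatives moved the mRNA counts most, and the cause was not tested. Among the 13 protein-coding genes, 0 were higher and 5 lower. Scaling by library totals alone gave 2 higher and 2 lower, DESeq2 gave 2 lower, and with no filter on low counts or with the replicate block 1 (mt-Nd4l) was higher. Leaving out each library gave 0 to 2 higher and 0 to 5 lower. With copies added, 6 were lower: scaling by library totals alone gave 1 higher and 2 lower, DESeq2 2 lower, no filter or the replicate block 1 higher, and leaving out each library 0 to 2 higher and 0 to 7 lower. DESeq2 called 1 rRNA and 0 tRNA genes higher, and leaving out each library gave 0 to 2 tRNA genes higher and 1 to 2 lower. Relative to the mRNA pool, where 3 members were higher and 1 lower, leaving out each library gave 0 to 5 higher and 0 to 1 lower. Among all genes, DESeq2 called 1367 higher and 1743 lower. Among the companion lists, 12 genes were higher and 15 lower; scaling by library totals alone gave 8 lower, DESeq2 3 higher and 5 lower, and leaving out each library 7 to 14 higher and 7 to 14 lower. No companion call reversed.

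The log2 ratio of the mRNA share of the libraries ranged from -0.106 to 0.0681 with each library left out, that of the rRNA share from 0.34 to 0.55. As shares of mitochondrial counts, these ratios ranged from -0.0068 to -0.0035 for mRNA, from 0.27 to 0.65 for rRNA and from 0.0024 to 0.23 for tRNA. Without the genes that have a copy, the mRNA ratio in shares of mitochondrial counts was -0.0106. The mRNAs make up nearly all of those counts, so this ratio can hardly move and does not speak of the library share.

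Genes that missed the threshold could change sign with a library left out, as their log2 fold changes show: mt-Co1 ranged from -0.0035 to 0.19 (-0.0394 to 0.18 with its copy), mt-Co2 from -0.28 to 0.0070 (-0.12 to 0.0182 with its copy), mt-Atp8 from -0.0327 to 0.216, mt-Atp6 from -0.18 to 0.19, mt-Nd5 from -0.139 to 0.0117 and mt-Nd3 with its copy from -0.52 (called lower, without LPS replicate 1) to 0.18. Of these, mt-Co1 was called higher without NC replicate 2. The same held for 2 tRNA genes, mt-Ts1 from -0.0023 to 0.26 and mt-Tp from -0.15 to 0.75. Without NC replicate 2, mt-Co2 with its copy was at 0.0084 and mt-Nd3 with its copy at 0.0751, and without LPS replicate 2 mt-Atp6 was at 0.0876. Scaled by library totals alone, mt-Atp6 was at 0.0543 and mt-Co2 with its copy at 0.0122. With limma-voom mt-Atp6 was at 0.0018, and summing mt-Co3 with its copy gave -0.12.

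Same-numbered libraries showed no shared deviation: their deviations from their group means had a correlation of 0.019 across genes. That value does not tell whether the samples were paired by design. With the replicate number as a block, 3376 genes were higher and 3593 lower, both rRNAs stayed higher, mt-Tc and mt-Ty stayed higher and mt-Te lower, and 2 members were higher and 1 lower relative to the mRNA pool. The filter on low counts left 14 tRNA genes untested, and without it 19 of the 22 were tested, with 2 higher and 1 lower. The rRNA shares rest on 798 to 1050 counts and the tRNA shares on 973 to 1111 counts a library.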
